A study of Mus musculus with 4 samples.

Results

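Foxp1, Foxp2 and Foxp4 are 3 of the 4 genes of the mouse Foxp family, and each was read by 1 probe set with a single annotated gene symbol, out of 19938 genes read by such probe sets. The genes were selected on array levels, because Foxp2, usually counted among Purkinje cell genes, stood higher in the PtchLacZ/+ tumour while other Purkinje cell genes stood lower. The levels of Foxp2 and of Purkinje cell genes, and every difference that involves the PtchLacZ/+ tumour, are therefore descriptions with no test for these genes. Foxp2 lay on chromosome 6 (probe set 10536444), Foxp1 also on chromosome 6 (probe set 10546661) and Foxp4 on chromosome 17 (probe set 10451613).

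Total RNA was hybridised to 4 Affymetrix Mouse Gene 1.0 ST arrays, 1 for each sample, and all mice were of mixed C57BL/6 and C3H background. The control was wild-type cerebellum, taken at 2 months of age. Both SmoM2 tumours were medulloblastomas of Math1-Cre;SmoM2 mice, 1 at 1 month and 1 at 2 months of age, in which the Math1 (Atoh1) promoter drives Cre in the granule neuron lineage and switches on SmoM2, a constitutively active Smoothened that turns on Hedgehog signalling. The remaining sample was a medulloblastoma that arose in a PtchLacZ/+ mouse aged 5 months, where lacZ disrupts one copy of Ptch1, whose product holds Smoothened in check. The PtchLacZ/+ genotype and its older age cannot be told apart, and the labels do not say how many animals gave each sample. The p-values measure only the spread between these samples, which may be technical. That spread also holds the age difference of the SmoM2 tumours and, where the PtchLacZ/+ tumour is included, its genotype and age. Every comparison with the cerebellum shares that single array.

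Foxp proteins are forkhead transcription factors that mostly repress transcription. They bind DNA as homodimers or heterodimers with one another through a leucine zipper, so a cell's set of family members decides which pairs can form, and they recruit corepressors such as the CtBP proteins and the NuRD histone deacetylase complex. In the cerebellum Foxp2 is best known from Purkinje cells and neurons of the deep nuclei, Foxp4 is also found in Purkinje cells, and Foxp1 is widely expressed in brain, blood and vessel cells. Foxp3, the remaining member, directs regulatory T cells.

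The tissue labels matched their defining markers. Gabra6, of mature granule neurons, had a log2 level of 12.24 in cerebellum and between 4.64 and 7.97 in the tumours, and Pcp2, of Purkinje cells, at 9.63 against 5.95 to 6.91. Atoh1 was at 4.85 in the cerebellum and at 11.39 to 11.98 in the tumours, and Gli1 at 7.21 against 9.29 to 10.03. All 3 Foxp genes lay above the lower quartile of named genes (5.09 to 5.17) on every array. Levels are given as deposited, on the log2 scale, and are compared between arrays for 1 gene at a time, never between genes.

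The sequences just upstream of Foxp1 and Foxp4 are shown for the letters that forkhead factors, including the products of these genes, bind. RefSeq promoter windows (GRCm38.p6, the 250 bases before a transcription start) were matched by symbol for 3 starts of Foxp1, 1 of Foxp4 and none of Foxp2. They are printed 5′ to 3′ on the minus strand, with the forkhead core TGTTTA, or its reverse complement TAAACA, in capitals. The Foxp1 windows lay at chr6:99520994-99521243 for the first, chr6:99266516-99266765 for the second and chr6:99028299-99028548 for the third, and the Foxp4 window at chr17:47924633-47924882.
Foxp1 first start: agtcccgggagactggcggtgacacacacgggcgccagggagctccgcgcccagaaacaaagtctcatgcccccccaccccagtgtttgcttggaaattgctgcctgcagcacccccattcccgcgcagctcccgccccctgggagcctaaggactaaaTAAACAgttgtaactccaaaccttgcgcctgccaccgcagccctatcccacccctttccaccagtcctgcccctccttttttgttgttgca
Foxp1 second start: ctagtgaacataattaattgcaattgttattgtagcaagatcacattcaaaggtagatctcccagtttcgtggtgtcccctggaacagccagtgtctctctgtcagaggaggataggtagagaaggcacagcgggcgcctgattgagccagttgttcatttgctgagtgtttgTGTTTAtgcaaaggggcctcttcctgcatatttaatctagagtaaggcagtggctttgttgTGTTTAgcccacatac
Foxp1, the third start: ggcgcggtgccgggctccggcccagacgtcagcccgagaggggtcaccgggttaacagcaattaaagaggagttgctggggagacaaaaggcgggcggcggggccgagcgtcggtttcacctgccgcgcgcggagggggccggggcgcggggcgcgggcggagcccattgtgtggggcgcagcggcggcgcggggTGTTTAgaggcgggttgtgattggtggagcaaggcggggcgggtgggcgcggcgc
Foxp4 start: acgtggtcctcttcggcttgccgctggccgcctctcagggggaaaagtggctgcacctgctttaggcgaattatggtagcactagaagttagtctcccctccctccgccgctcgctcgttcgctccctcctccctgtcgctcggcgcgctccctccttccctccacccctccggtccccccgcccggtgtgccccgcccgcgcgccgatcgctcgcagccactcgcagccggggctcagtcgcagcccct
The first and the third Foxp1 window each held 1 match, the second held 2 and the Foxp4 window held 0. Of all 32851 windows of the same length, 12% held the core on either strand, so a window with no match is the usual case. The Gli letters GACCACCCA or TGGGTGGTC, bound by the transcription factors of the Hedgehog pathway, were in none of the 4 windows and in 0.225% of all windows. A match is a description of the sequence and not a bound site.

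Foxp2 had the widest spread of the family. Its level was 6.07 in the cerebellum, 6.73 in the 2-month SmoM2 tumour, 7.34 in the 1-month SmoM2 tumour and 8.50 in the PtchLacZ/+ tumour. All tumours were thus above the cerebellum, and the PtchLacZ/+ tumour was above both SmoM2 tumours. Of all genes, 38.1% had every tumour above the cerebellum and 23.8% had the PtchLacZ/+ tumour above both SmoM2 tumours. The PtchLacZ/+ tumour exceeded the cerebellum by 2.44 on the log2 scale, a 5.41-fold difference, and the mean of the SmoM2 tumours by 1.47, a 2.77-fold difference. It stood 1.16 beyond the nearer SmoM2 tumour, a margin of at least 1 that 0.0853% of genes had in the same direction. That margin was 1.77 when only the 2-month SmoM2 tumour was compared. These values chose the gene and carry no test.

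Foxp1 followed the same order of arrays over a smaller range. The cerebellum had a Foxp1 level of 7.32, the 2-month and 1-month SmoM2 tumours had 7.62 and 7.63, and the PtchLacZ/+ tumour had 8.14. The SmoM2 tumours differed by 0.0099 and are not ordered. The PtchLacZ/+ tumour was above the cerebellum by 0.82 (1.76-fold) and above the mean of the SmoM2 tumours by 0.51 (1.43-fold), so Foxp1 did not reach a log2 difference of 1 in either comparison. A log2 difference of at least 1 in that direction was present in 7.91% of genes against the cerebellum and in 0.321% against the SmoM2 mean.

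Foxp4 ran the other way and had the smallest range of the 3 genes. Its level was 7.49 in the cerebellum, 7.39 and 7.32 in the 1-month and 2-month SmoM2 tumours and 7.20 in the PtchLacZ/+ tumour. Every tumour was below the cerebellum, as for 32% of all genes, and the PtchLacZ/+ tumour was below both SmoM2 tumours, as for 31.1%. The whole range over the 4 arrays was 0.29, against 2.44 for Foxp2 and 0.82 for Foxp1. The PtchLacZ/+ tumour was lower than the cerebellum by a log2 difference of -0.29 and lower than the SmoM2 mean by -0.16, and after quantile normalization the second difference was -0.11. Levels that rise from the cerebellum through both SmoM2 tumours to the PtchLacZ/+ tumour, as those of Foxp1 and Foxp2 did, were found in 10.4% of all genes, and levels that fall in that order, as those of Foxp4 did, in 12.2%.

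**Figure D1:**
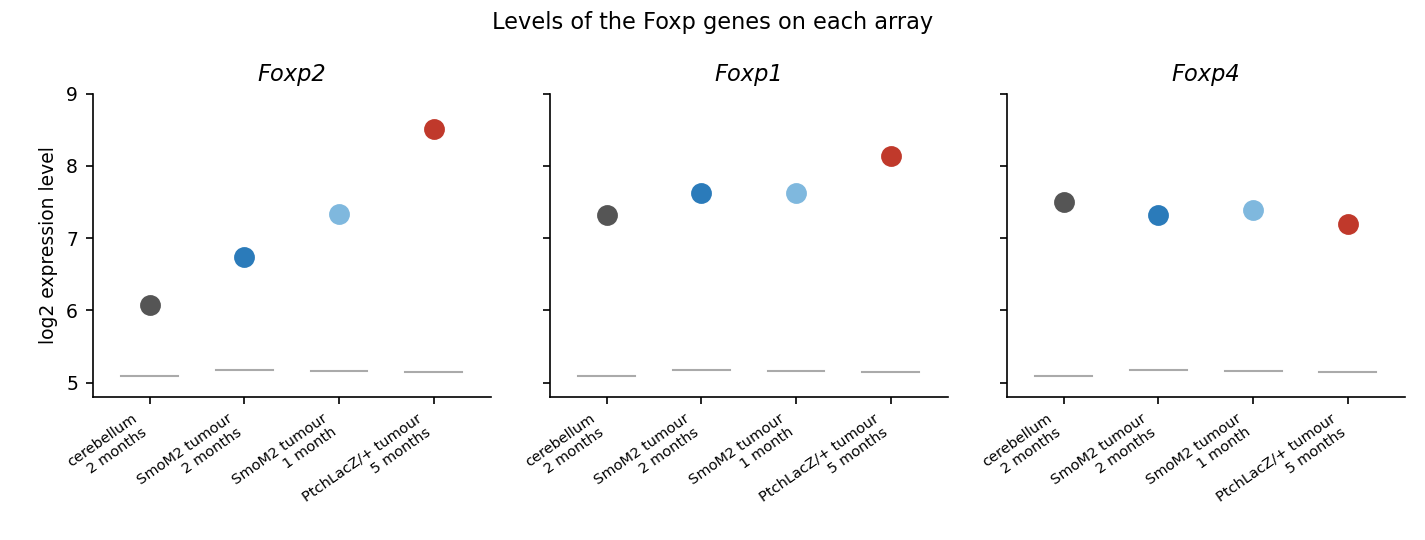
Log2 expression level of Foxp2, Foxp1 and Foxp4 (vertical axis) on each of the 4 arrays (horizontal axis, 1 point per array, no error bars because each point is 1 sample), with a grey line at the lower quartile of named genes on that array. Foxp2 spans 6.07 to 8.50 and Foxp1 7.32 to 8.14, both lowest in the cerebellum and highest in the PtchLacZ/+ tumour, while Foxp4 stays between 7.20 and 7.49.

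The comparison of the SmoM2 tumours with the cerebellum did not involve the PtchLacZ/+ tumour and was tested with limma across all 19938 genes, calling a gene when its Benjamini-Hochberg adjusted p was under 0.05. It asks whether the family differed between Hedgehog-driven tumour and normal cerebellum in the other genotype. Foxp1 and Foxp4 did not pass, while 7.85% of all genes did (3.15% higher and 4.7% lower in the tumours). Foxp2 was selected as high against the same cerebellum array, so its values here are a description with no test. Both SmoM2 tumours were above the cerebellum for Foxp2, by 0.66 at 2 months and by 1.27 at 1 month, with a mean difference of 0.97. The size therefore depends on which of the tumours is used.

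Foxp1 was higher in the SmoM2 tumours by 0.30 ± 0.25 (SE, n = 2 tumours against 1 cerebellum, limma adjusted p = 0.617), with a 95% interval of -0.35 to 0.96. The SmoM2 arrays lay close together for this gene (SD 0.0070, n = 2), and its standard error also draws on the spread of other genes. Foxp4 differed by -0.14 ± 0.25 (limma adjusted p = 0.876), with an interval of -0.80 to 0.53. A change of less than 1 log2 unit in either direction is thus the most that the intervals of Foxp1 and Foxp4 allow, and neither gene was shown to be unchanged. The lone cerebellum was assumed to vary like the tumours, with 1 residual degree of freedom.

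Between the SmoM2 tumours, which have 1 array at each age and no test, Foxp2 was again the member that differed most. It was higher at 1 month than at 2 months by 0.61, short of the log2 difference of 1 that 2.05% of genes reached in that direction and 1.66% in the other. The same difference was 0.0099 for Foxp1 and 0.070 for Foxp4. After quantile normalization these became 0.68, 0.11 and 0.14, so Foxp2 kept the largest difference of the 3.

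Foxp2 was set against other Purkinje cell genes, whose values were part of the reason for choosing it. Of 15 mature Purkinje cell markers measured, 13 were below the cerebellum in the PtchLacZ/+ tumour, 13 in the 1-month and 14 in the 2-month SmoM2 tumour. Their median difference from the cerebellum was -4.43 in the PtchLacZ/+ tumour, -2.98 in the 1-month and -3.39 in the 2-month SmoM2 tumour. High Foxp2 with low markers in the PtchLacZ/+ tumour is the pattern that chose the gene. The SmoM2 tumours did not repeat it, since the 1-month tumour had more Foxp2 (7.34 against 6.73) and the smaller median decrease. Calb1, which encodes the calcium buffer calbindin, had a level of 11.92 in cerebellum, 8.05 and 7.96 in the 1-month and 2-month SmoM2 tumours and 4.45 in the PtchLacZ/+ tumour. Ppp1r17, a phosphatase inhibitor gene, was at 10.60, 5.66, 5.75 and 3.73 in the same order of arrays, with the 1-month tumour before the 2-month one. The 2 markers that were not lower there, Grid2ip at 7.57 and Syndig1l at 6.48 in the cerebellum, differed from the cerebellum by 0.43 and 0.66 in the PtchLacZ/+ tumour. None of the 15 reached the Foxp2 difference in any tumour.

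Genes of developing Purkinje cells did not move as a block. Of 14 measured, 7 were above and 7 below the cerebellum in the PtchLacZ/+ tumour, with a median difference of -0.25. Ebf3, a transcription factor gene, had a level of 6.98 in cerebellum, 10.28 and 10.20 in the 1-month and 2-month SmoM2 tumours and 10.77 in the PtchLacZ/+ tumour. It was the one gene of the list that lay further above the cerebellum than Foxp2 there. In the 1-month SmoM2 tumour 2 genes of the list lay at least as far above as Foxp2, and in the 2-month one 3. Ebf1, a relative of Ebf3, was at 9.16, 10.30, 10.06 and 10.59. The Reelin adaptor gene Dab1 was at 9.14, 6.76, 7.25 and 6.56, and the transcription factor gene Etv1 at 11.38, 9.78, 9.46 and 8.43. Lhx1 and Lhx5, which specify Purkinje cells, differed in direction, with Lhx1 above the cerebellum by 1.07 and Lhx5 below it by a log2 difference of -1.35 in the PtchLacZ/+ tumour. Skor2, another Purkinje cell regulator, was at 6.34 in the cerebellum and at 5.79 to 6.01 in the tumours.

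**Figure D2:**
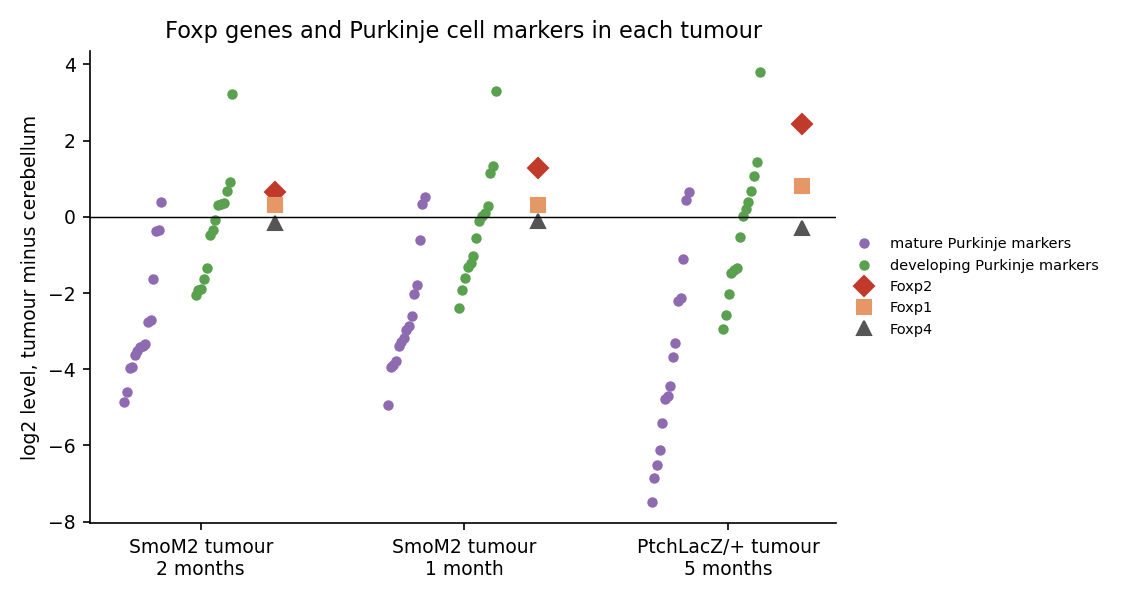
Difference in log2 level between each tumour and the cerebellum (vertical axis) for the 3 tumours (horizontal axis), with 1 point per gene for 15 mature (purple) and 14 developing (green) Purkinje cell markers and larger symbols for Foxp2, Foxp1 and Foxp4. Foxp2 lies above the line of no difference in every tumour, up to 2.44 in the PtchLacZ/+ tumour, where the mature markers reach down to -7.48.

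Marker lists of other cell types were read beside the Foxp genes, as the mean log2 level of a list on each array. In whole tissue, fewer cells of a type and less RNA per cell cannot be told apart. Granule neuron progenitor markers (15 measured) had a mean of 7.45 in the cerebellum, 9.89 in the 2-month and 10.25 in the 1-month SmoM2 tumour and 10.35 in the PtchLacZ/+ tumour. Markers of the cerebellar nuclei and unipolar brush cells (13 measured) had means of 6.89, 7.16, 7.56 and 7.59 in that order of arrays. The means of both lists thus ranked the arrays as Foxp2 did. In the second list few genes carried the order of the SmoM2 tumours, since 6 of its 13 genes were higher at 1 month and 7 lower, with a median difference of -0.01 and with 3.50 for the glutamate transporter gene Slc17a6. The part of either list in the Foxp2 levels was not tested. Mature granule neuron markers (16 measured) had 11.38, 8.11, 8.68 and 7.66, inhibitory interneuron markers (11 measured) 8.77, 6.75, 6.80 and 6.35, and oligodendrocyte markers (12 measured) 9.16, 7.16, 7.18 and 6.37. Astrocyte and Bergmann glia markers (14 measured) had 10.08, 9.10, 8.89 and 8.34.

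Cell types outside the neuronal lineage in which Foxp1 is known were read in the same way. Microglia and macrophage markers (14 measured) had means of 6.53 in the cerebellum and 8.52, 8.13 and 8.47 in the 2-month, 1-month and PtchLacZ/+ tumours. Endothelial and mural markers (12 measured) had 7.14, 7.77, 6.72 and 6.91, lymphocyte markers (12 measured) 5.04, 5.40, 5.37 and 5.36, meningeal and fibroblast markers (12 measured) 7.36, 7.27, 7.38 and 7.04, and oligodendrocyte precursor markers (9 measured) 7.22, 9.05, 9.04 and 8.86. Of the microglia and macrophage markers, 9 of 14 were above the SmoM2 mean in the PtchLacZ/+ tumour, with a median difference of 0.11. Itgam, an integrin gene of these cells singled out after its values were seen, was there at 7.90, against 6.81 and 6.59 in the 1-month and 2-month SmoM2 tumours. Its difference from the SmoM2 mean, 1.20, was the largest of the list, and 5 of the 14 markers were below that mean, by up to -0.83. The part of these cell types in the levels of Foxp1 and Foxp2 was not tested. Foxp3, itself on the lymphocyte list, had a level of 5.37 in cerebellum, 5.36 and 5.80 in the 2-month and 1-month SmoM2 tumours and 5.96 in the PtchLacZ/+ tumour.

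The other forkhead genes showed where the family stood among its relatives. Of 40 measured, 5 passed when the 3 tumours were compared with the cerebellum in limma (2 residual degrees of freedom), which is 12.5% against 16% of all genes (6.7% higher and 9.3% lower). Foxm1, which drives mitotic gene expression, rose by 4.22 ± 0.29 (SE, limma adjusted p = 0.0038). Foxo6 rose by 1.95 ± 0.24 and Foxd1 by 1.97 ± 0.39, while Foxn3 fell by 1.69 ± 0.23 and Foxo3, a factor of stress resistance and quiescence, fell by 1.05 ± 0.22. Foxd1 and Foxo3 did not pass without the PtchLacZ/+ tumour (limma adjusted p = 0.0797 and 0.104), nor did Foxo3 without the 1-month SmoM2 tumour (limma adjusted p = 0.0709) or after quantile normalization (limma adjusted p = 0.0667). The median difference of the list was 0.19, against 0.04 over all genes. In the SmoM2 tumours alone, Foxm1, Foxo6 and Foxn3 passed, 7.5% of the list against 7.85% of all genes.

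Among these 40 genes and the 3 Foxp genes, Foxp2 and Foxp1 had the largest positive differences between the PtchLacZ/+ tumour and the SmoM2 mean (1.47 and 0.51). Foxm1 followed Foxp1 closely at 0.45, and Foxp4 was number 29 of 43 from the top. Against the cerebellum, Foxm1 was the single other forkhead gene with a larger difference in the PtchLacZ/+ tumour than Foxp2 (4.52 against 2.44). Foxp2 was chosen as high in that tumour, so its high rank in these comparisons follows in part from the choice. In the SmoM2 tumours 4 other forkhead genes exceeded Foxp2. Foxf2 was the extreme on the opposite side, with levels of 6.79 in the cerebellum, 10.06 and 8.19 in the 1-month and 2-month SmoM2 tumours and 7.67 in the PtchLacZ/+ tumour. It stood 1.45 on the log2 scale below the SmoM2 mean there, and was singled out after its values were seen.

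**Figure D3:**
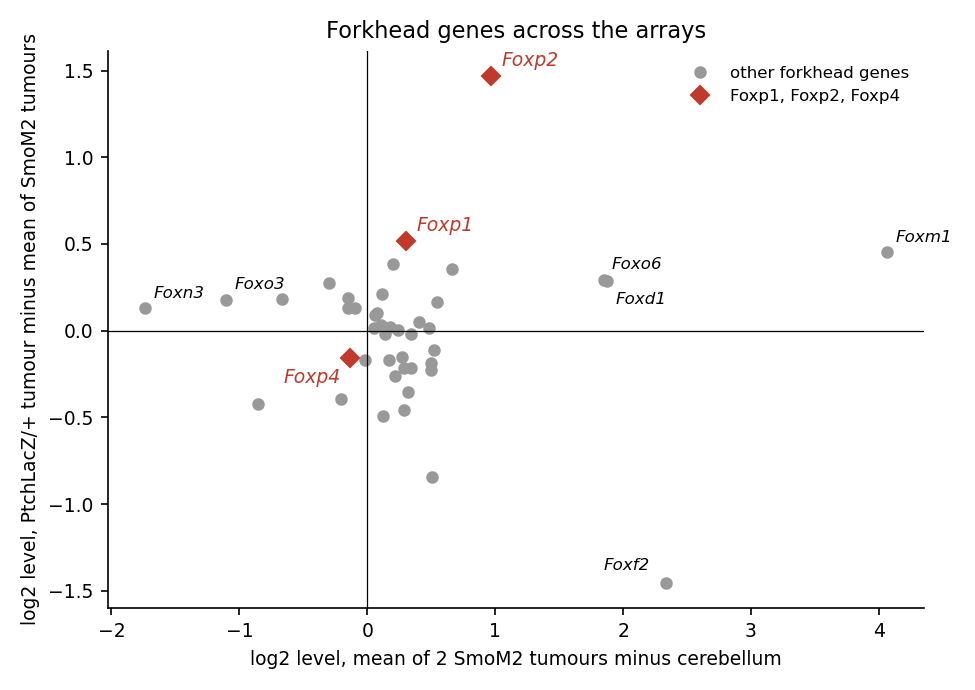
Each point is a forkhead gene, placed by the difference in log2 level between the mean of the 2 SmoM2 tumours and the cerebellum (horizontal axis) and between the PtchLacZ/+ tumour and the SmoM2 mean (vertical axis), with Foxp1, Foxp2 and Foxp4 as red diamonds. Foxp2 (0.97, 1.47) is at the top of the vertical axis, Foxp1 is next at 0.51, Foxp4 lies near the origin and Foxm1 is farthest right at 4.06. The SmoM2 mean enters both axes with opposite sign, so the axes are not independent.

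Foxp proteins act through corepressors, and several genes of these were higher in the tumours. Of 26 measured corepressor and partner genes, 6 rose and 1 fell in the 3 tumours against the cerebellum, 26.9% against 16% of all genes, with a median difference of 0.43. No gene of this list lay below the lower quartile on any array, and well-expressed genes passed more often. Among genes above the median level, 2635 of 9969 passed, and there 7 genes of the list were higher and 0 lower. The list holds 13 genes of NuRD complex subunits, a group counted after its values were seen. The 6 genes that rose were among them, and the other 7 did not pass, with differences from -0.23 for Mta3 to 0.99 for Hdac1, of which 3 were negative. Those that rose were the metastasis-associated genes Mta2 (1.33 ± 0.26, limma adjusted p = 0.0297) and Mta1 (1.00 ± 0.16), the deacetylase gene Hdac2 (1.28 ± 0.17, limma adjusted p = 0.0115), the remodeller gene Chd4 (1.25 ± 0.22), Gatad2a (1.10 ± 0.24) and the histone chaperone gene Rbbp4 (1.04 ± 0.18). The calcium-dependent factor Nfatc2 fell by 0.74 ± 0.16 (limma adjusted p = 0.0422, and 0.0504 with a trended prior), and the acetyltransferase gene Kat5 differed by -0.49 ± 0.25 (limma adjusted p = 0.277). The CtBP genes Ctbp1 and Ctbp2 differed by 0.43 ± 0.19 and 0.32 ± 0.17 and did not pass.

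The count rested on which tumours entered. It was 0 higher and 0 lower without the PtchLacZ/+ tumour (8 and 1 at an unadjusted limma p under 0.05, which 22.5% of all genes reached), where 7.85% of all genes passed. It was 11 and 2 without the 2-month SmoM2 tumour, 50% of the list against 30.1% of all genes. Without the 1-month SmoM2 tumour it was 3 and 0, and 11.5% of the list and 11.5% of all genes passed. Of the genes that rose, Chd4 was highest in the PtchLacZ/+ tumour, as Foxp2 was. Its level was 9.93 in the cerebellum, 11.24 and 10.96 in the 1-month and 2-month SmoM2 tumours and 11.34 in the PtchLacZ/+ tumour. Hdac2, Mta2, Mta1, Gatad2a and Rbbp4 were not highest there. Hdac2 had a level of 10.23 in cerebellum, 11.59 and 11.49 in the 1-month and 2-month SmoM2 tumours and 11.46 in the PtchLacZ/+ one, and the Mta2 levels in that order of arrays were 8.52, 9.67, 10.16 and 9.72.

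Genes reported as Foxp2 targets were compared next. Of 17 measured, 4 fell and 0 rose in the 3 tumours against the cerebellum, 23.5% against 16% of all genes, with a median difference of 0.08. At an unadjusted limma p under 0.05, which 29.7% of all genes reached, 1 gene of the list (Lpl) was higher and 5 were lower. Cntnap2, which encodes a neurexin-like adhesion protein and is bound and repressed by FOXP2 in human cells, fell by 2.42 ± 0.49 (SE, limma adjusted p = 0.0337). The cerebellum had a Cntnap2 level of 8.79, the 1-month and 2-month SmoM2 tumours had 6.42 and 5.71, and the PtchLacZ/+ tumour had 6.97. Its level was thus higher in the PtchLacZ/+ tumour than in both SmoM2 tumours, as that of Foxp2 was and as for 23.8% of all genes. Against the SmoM2 mean, 10 genes of the list were higher in the PtchLacZ/+ tumour and 7 lower. The part of Foxp2 in these levels was not tested. The Reelin receptor gene Vldlr fell by 1.64 ± 0.21, the receptor tyrosine kinase gene Ret fell by 1.52 ± 0.26 and the semaphorin gene Sema6d fell by 1.33 ± 0.20. The lipase gene Lpl differed by 1.75 ± 0.46 (limma adjusted p = 0.0676) and the receptor gene Gpr85 by 0.82 ± 0.39 (limma adjusted p = 0.253). Etv1 is also one of the developing Purkinje cell genes, so its difference of -2.16 carries no test. Its place among the 5 lower genes is likewise a description.

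When the 1-month SmoM2 tumour was left out, Cntnap2 no longer passed (limma adjusted p = 0.0548). Lpl passed when either SmoM2 tumour was left out. In the SmoM2 tumours alone, Cntnap2, Etv1, Vldlr and Ret were the 4 genes of the list that passed, 23.5% of it against 7.85% of all genes. Etv1 enters that share as a Purkinje cell gene, whose levels were part of the choice of Foxp2, so the share is a description.

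Foxp1 and Foxp2 share chromosome 6, and the genes around them were read to see what else moved there. The 494 genes of chromosome 6 with a mean level above the median had a median difference between the PtchLacZ/+ tumour and the SmoM2 mean of 0.20, against -0.03 for genes of other chromosomes. Against the cerebellum the same medians were 0.33 and 0.01 for the PtchLacZ/+ tumour and 0.05 and 0.03 for the SmoM2 tumours. Relative to the chromosome's median, Foxp1 in the PtchLacZ/+ tumour was 0.31 above the SmoM2 mean, and 73 other genes of the 494 were at least as high as Foxp1. Foxp2 was 1.27 above it, and 0 of the other genes were as high. Since Foxp2 was chosen as high in the PtchLacZ/+ tumour, its place here follows in part from the choice. Between the ages, the median difference of chromosome 6 genes was -0.45 at 1 month against 2 months, that of genes on other chromosomes -0.12 and that of chromosome 17 genes -0.46, whereas Foxp2 was higher by 0.61. The part of the chromosome-wide shift in the levels of Foxp1 and Foxp2 was not tested.

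The 10 nearest measured genes of Foxp2 differed between the PtchLacZ/+ tumour and the SmoM2 mean by -0.17 to 0.66, with a median of 0.19. None reached the Foxp2 difference of 1.47, which involves the tumour that chose Foxp2. Bmt2 and Gpr85 had the largest, at 0.66 and 0.65. Against the cerebellum 3 of the 10 were higher by at least 1 in the PtchLacZ/+ tumour. They were Tmem168 (1.07), Gpr85 (1.26) and Mdfic (2.10), which lies next to Foxp2 and had a level of 6.14 in cerebellum, 8.03 and 8.05 in the 1-month and 2-month SmoM2 tumours and 8.24 in the PtchLacZ/+ tumour. Mdfic passed in the SmoM2 tumours (1.90, limma adjusted p = 0.0229).

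Around Foxp1 the 10 nearest genes differed between the PtchLacZ/+ tumour and the SmoM2 mean by -0.23 to 0.52, and its direct neighbour Eif4e3 had the same difference as Foxp1 (0.52 against 0.51). Frmd4b, 3 genes away, had a level of 6.70 in cerebellum, 9.71 and 10.64 in the 1-month and 2-month SmoM2 tumours and 10.27 in the PtchLacZ/+ tumour, a difference that Foxp1 did not share. Around Foxp4 on chromosome 17, the 10 nearest genes differed by -0.29 to 0.22, a range that holds Foxp4 (-0.16).

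**Figure D4:**
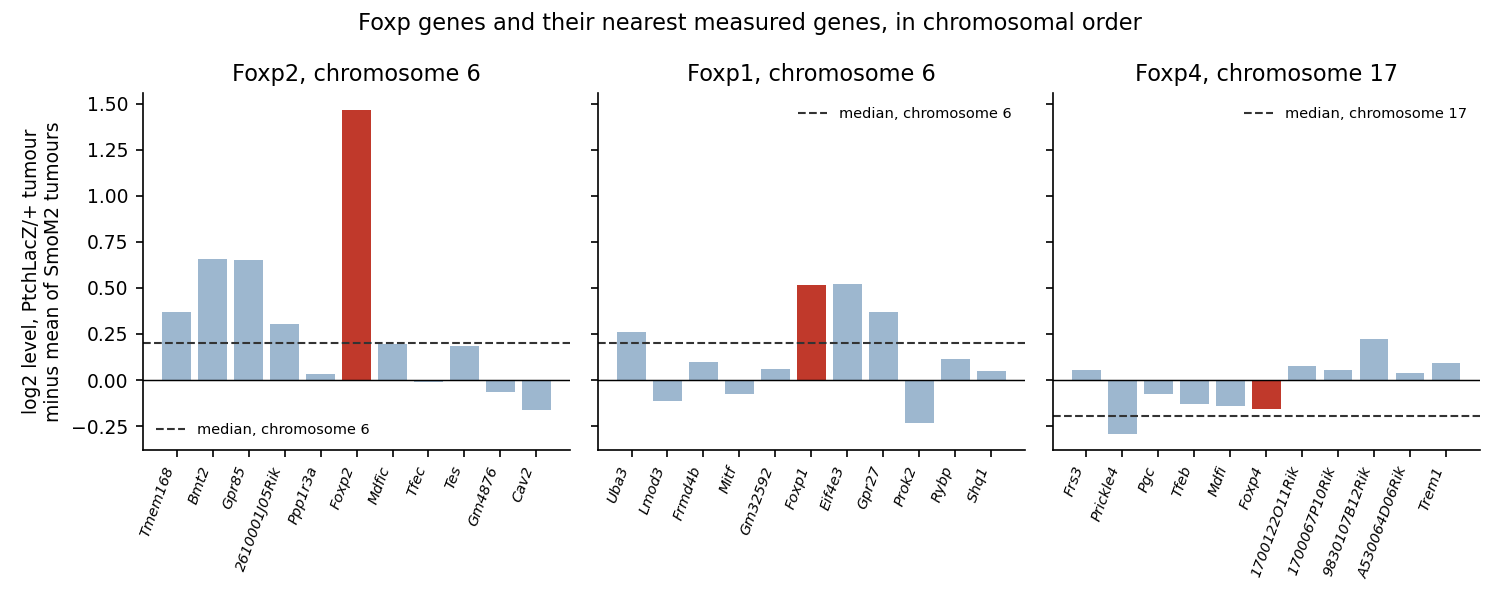
Difference in log2 level between the PtchLacZ/+ tumour and the mean of the 2 SmoM2 tumours (vertical axis) for each Foxp gene (red bar) and the 5 nearest measured genes on either side in chromosomal order (blue bars), with a dashed line at the median of the chromosome's genes above the median level. Foxp2 reaches 1.47 among neighbours between -0.17 and 0.66, while Foxp1 (0.51) and Foxp4 (-0.16) lie within the range of their neighbours.

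The genes most like each member were found by the distance between gene-centred log2 profiles over the 4 arrays, among 9969 genes above the median level. For Foxp2 they were Mroh2a (distance 0.26), Ankdd1a (0.39), the elastin gene Eln (0.45), the homeobox gene Otx2 (0.46) and the receptor phosphatase gene Ptpro (0.57). Otx2, a patterning gene of the fore- and midbrain that granule progenitors also use, had 7.28 in cerebellum, 8.10 and 9.18 in the 2-month and 1-month SmoM2 tumours and 9.94 in the PtchLacZ/+ one. For Foxp1 the nearest were the DNA glycosylase gene Mbd4 (0.079) and Tmtc1 (0.086), both on chromosome 6, followed by Sema4c (0.11), Styx (0.14) and the cyclin gene Ccng2 (0.14). For Foxp4 they were Slc44a1, Zfp341, Vps51, Ptpdc1 and Cyria, at distances of 0.029 to 0.052. Distances are small for genes that vary little and are not compared between members.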

How the data were processed

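The authors deposited 1 table of log2 levels for 35557 probe sets on 4 arrays. Per the submitters' processing notes it came from Affymetrix Expression Console, whose version and summarisation method were not given in the sources used here. Values ran from 2.71 to 14.86, as log2 levels do. In the platform annotation 21789 probe sets hold 1 gene symbol, 1621 several and 12147 none. Symbols and chromosomes were updated by Entrez identifier from RefSeq (GRCm38.p6) for 21698 probe sets. For each of 19938 genes the probe set with the highest mean was used. Tests used limma 3.58.1 in R 4.3.3 (lmFit, eBayes, Benjamini-Hochberg over all genes) and were checked on simulated data. No filter was applied, no detection calls were used, and the number of arrays limits the precision.

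The members, the gene lists and the tests were chosen with earlier results of these data known. The naming rule took, per list, the 2 most positive and 2 most negative genes in 3 tumours minus cerebellum, every forkhead gene that passed, 5 most-like genes per member and 5 neighbours per side. For marker lists other than the Purkinje lists means are given instead of names. Other named genes (Lhx1, Lhx5, Skor2, Slc17a6, Itgam, Hdac1, Mta3, Ctbp1, Ctbp2, Foxf2, Vldlr, Ret, Sema6d, Mta1, Chd4, Gatad2a, Rbbp4) were chosen after their values were seen, as were the microRNAs and the scaling of member differences. Alternatives were quantile normalization, median centring, a filter on low levels, a trended prior, other uses of probe sets, 1 fit of 3 groups and leaving out each tumour.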

Additional observations from a re-analysis of the deposited data

How the results depend on the processing

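The direction of the Foxp1, Foxp2 and Foxp4 differences held in every comparison under every alternative run, and neither Foxp1 nor Foxp4 passed in the SmoM2 tumours under any of them. Their size held in 94 of these results and moved in 11. After quantile normalization the Foxp1 difference between SmoM2 ages went from 0.0099 to 0.11. The Foxp4 difference of the PtchLacZ/+ tumour beyond the nearer SmoM2 tumour went from -0.12 to -0.03. The direction of differences this small carries little weight. The number of genes that passed in 3 tumours against the cerebellum was 3191 and ranged from 1565 to 6010 when 1 tumour was left out (628 to 2689 higher, 937 to 3321 lower), with the lowest count without the PtchLacZ/+ tumour and the highest without the 2-month SmoM2 tumour. The number of genes at least 1 log2 unit above the nearer SmoM2 tumour in the PtchLacZ/+ tumour was 17, became 10 among genes above the median level because fewer genes were counted, and ranged from 50 to 303 when 1 SmoM2 tumour was left out, since only 1 then had to be exceeded. For genes below the nearer SmoM2 tumour that range was 128 to 354, against 60. Between the SmoM2 ages, 331 genes were lower by at least 1 at 1 month, and 220 among genes above the median level. The other 70 counts over all genes stayed within 1.5 times. Without 1 SmoM2 tumour, the other left no residual degree of freedom against the cerebellum, so only values were given. The fit of 3 groups gave the values of the fit without the PtchLacZ/+ tumour, by construction. No paired analysis was possible because the labels give no replicate numbers and name no pairing.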

Other observations

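The microRNAs miR-9 and miR-132 are known to repress Foxp2 in neurons, and miR-9 also represses Foxp1 in motor neurons. Their precursors were looked up after the values of the Foxp genes had been seen. Mir9-2, also a precursor of miR-9, was not among the measured genes. The mature sequences (RefSeq, GRCm38.p6) are printed 5′ to 3′ with the seed, bases 2 to 8, in capitals.
mmu-miR-9-5p: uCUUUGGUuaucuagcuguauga
mmu-miR-132-3p: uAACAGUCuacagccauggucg
Mir9-1 stood at 5.94 in the cerebellum, 5.31 and 7.49 in the 2-month and 1-month SmoM2 tumours and 6.82 in the PtchLacZ/+ tumour. Mir9-3 was at 4.59, 5.25, 5.01 and 4.97 and Mir132 at 4.54, 5.02, 4.84 and 5.03 in that order of arrays, around or under the lower quartile of named genes and not shown to be above background. None of the 3 passed in the SmoM2 tumours against the cerebellum (limma adjusted p = 0.882, 0.348 and 0.519). The level of a precursor on this array is not that of the mature microRNA.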
